A study of Homo sapiens with 6 samples.

Results

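Aminoacyl-tRNA synthetases are the enzymes that join each amino acid to its transfer RNA, and 39 genes of this group were followed in CAL-62, an established cell line from an anaplastic thyroid carcinoma. The 39 genes, of 11359 in the table, were chosen by name: a letter for the amino acid followed by ARS, with a 2 for the mitochondrial enzyme, together with EPRS, FARSA, FARSB, AIMP1 and AIMP2. Of these, 22 were cytosolic and 17 mitochondrial, and all 39 passed the filter on low values, a mean of at least 1 FPKM (fragments scaled to transcript length and to mapped fragments) over the 6 libraries. PARS2 fits the naming rule, and the counts of called genes were the same in the 38 genes without it. RNA was sequenced from CAL-62 cells that overexpressed FOXK2, a forkhead transcription factor (n = 3), and from CAL-62 cells that carried the vector (n = 3), both grown in DMEM with serum. The labels call the 3 libraries of a group biological replicates and do not say whether they came from separate cultures, so each p-value reflects only how far these libraries spread, which may be technical in part. They also do not say how FOXK2 was introduced or whether each group was 1 clone.

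Cells hold separate sets of these enzymes for the cytosol and for mitochondria, and both sets are encoded in the nucleus. GARS and KARS each make both forms from 1 gene, EPRS carries the glutamyl and the prolyl enzyme in 1 protein, and the cytosolic phenylalanyl enzyme is built of an alpha subunit (FARSA) and a beta subunit (FARSB). Several cytosolic enzymes sit in a multi-synthetase complex held together by the scaffold proteins AIMP1, AIMP2 and EEF1E1. The enzymes fall into class I and class II, which have unrelated catalytic folds. ATF4, the transcription factor of the amino acid response, is known to raise many cytosolic synthetase genes through a C/EBP-ATF response element in their promoters.

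Promoters of 4 cytosolic genes are shown because they carry, or lack, a match to the core of that element. They run from 250 bases before the RefSeq start of the gene to 50 bases after it, in GRCh38.p14, and capitals mark matches to TGATGNAA, read on both strands, and to the E-box CACGTG. In IARS and MARS the element match lies on the strand opposite to the gene and so reads TTGCATCA, in NARS it lies on the gene's strand, and GARS, at chr7:30594485-30594784 on the plus strand, has neither motif. IARS is at chr9:92293648-92293947 on the minus strand, NARS at chr18:57621787-57622086 on the minus strand and MARS at chr12:57487818-57488117 on the plus strand.
IARS: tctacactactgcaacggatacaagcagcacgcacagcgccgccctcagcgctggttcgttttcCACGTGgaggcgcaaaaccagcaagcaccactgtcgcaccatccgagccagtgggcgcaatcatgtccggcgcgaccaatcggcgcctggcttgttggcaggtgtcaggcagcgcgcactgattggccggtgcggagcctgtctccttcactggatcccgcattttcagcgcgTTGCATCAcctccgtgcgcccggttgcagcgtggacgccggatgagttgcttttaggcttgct
NARS: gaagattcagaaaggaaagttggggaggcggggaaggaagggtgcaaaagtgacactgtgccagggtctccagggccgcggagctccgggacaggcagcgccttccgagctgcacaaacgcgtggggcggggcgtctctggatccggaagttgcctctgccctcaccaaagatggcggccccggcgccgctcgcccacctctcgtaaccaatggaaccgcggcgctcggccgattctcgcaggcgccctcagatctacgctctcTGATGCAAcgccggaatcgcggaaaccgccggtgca
MARS: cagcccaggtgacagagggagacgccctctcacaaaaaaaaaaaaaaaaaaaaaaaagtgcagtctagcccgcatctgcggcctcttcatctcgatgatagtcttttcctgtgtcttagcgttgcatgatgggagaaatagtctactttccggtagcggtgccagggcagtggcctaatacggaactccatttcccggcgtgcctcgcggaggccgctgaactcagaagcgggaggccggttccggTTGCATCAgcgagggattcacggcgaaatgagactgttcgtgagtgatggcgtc
GARS: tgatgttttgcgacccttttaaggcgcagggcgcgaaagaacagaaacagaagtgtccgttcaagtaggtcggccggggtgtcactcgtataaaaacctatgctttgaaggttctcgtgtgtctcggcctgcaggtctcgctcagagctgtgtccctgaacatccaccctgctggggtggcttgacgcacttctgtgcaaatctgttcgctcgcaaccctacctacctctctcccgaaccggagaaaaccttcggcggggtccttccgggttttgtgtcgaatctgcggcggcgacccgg
The table held a promoter for 32 of the 39 genes. TGATGNAA was present in 7 of the 32 (21.9%), namely AARS, CARS, IARS, MARS, NARS, TARS and YARS2, against 3.67% of all 27305 promoters and 1.55% of the 8309 promoters of tested genes. Of these 7 genes, IARS and NARS were called higher in FOXK2 cells and the other 5 were not called, beside 17.6% of all tested genes called higher. The other called cytosolic genes, GARS and FARSB, lack the match. The forkhead core GTAAACA was in 0 of the 32 promoters, against 3.41% of all promoters and 2.08% of those of tested genes. CACGTG was in 4 of the 32 (12.5%), those of CARS2, EARS2, IARS and MARS2, against 7.43% of all promoters and 10.7% of those of tested genes. The motifs do not overlap one another, and a match describes these letters only.

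FOXK2 itself was listed at 30.8, 36.2 and 30.1 FPKM in FOXK2 cells, against 16.3, 12.5 and 18.8 FPKM in vector cells, a log2 fold change of 1.00 (SE 0.17, adjusted p = 0.00525, limma). Correlations of log2 values across genes were 0.956 to 0.976 between FOXK2 libraries, 0.975 to 0.979 between vector libraries and 0.873 to 0.940 between groups. Fold changes over all genes moved with GC content (Spearman rho -0.59 across 10305 genes), and FOXK2 replicate 2 lay nearest to the vector libraries in this respect, with a slope of -0.0128 log2 units for 10 percentage points of GC, against -0.378 and -0.231 in the other FOXK2 libraries and 0.158 to 0.300 in vector libraries. Of 8 thyroid markers 3 were listed (PAX8, FOXE1 and HHEX, summing to 132 to 164 FPKM in FOXK2 libraries and 112 to 178 FPKM in vector libraries), while TG, TSHR, SLC5A5 and NKX2-1 were among those with no listed value. Within the thyroid sum HHEX was higher in FOXK2 cells (log2 fold change 1.26, adjusted p = 0.00099, limma) and PAX8 was not called (-0.23, adjusted p = 0.410). Mesenchymal markers (4 of 4 listed) summed to 740 to 793 FPKM in FOXK2 libraries and 746 to 793 FPKM in vector libraries. Epithelial markers (5 of 6 listed, CDH1 without a value) summed to 2349 to 3533 FPKM in FOXK2 libraries and 3562 to 4174 FPKM in vector libraries. Within this sum KRT19 (-1.31) and KRT7 (-0.73) were called lower, and EPCAM (-0.15), KRT18 (0.12) and KRT8 (0.004) were not called. Once trends with GC content and length were removed from each library, KRT19 (-0.71) was still called lower. KRT18 (0.66) and KRT8 (0.50) were then called higher, and KRT7 (-0.17) and EPCAM (-0.22) were not called. Fibroblast markers were 2 of 6 listed (COL1A1 and COL1A2, 20.1 to 21.6 FPKM in FOXK2 libraries and 30.3 to 39.6 FPKM in vector libraries), leukocyte markers 2 of 5 (CD68 and CD14, 11.5 to 14.6 FPKM in FOXK2 libraries and 13.9 to 21.0 FPKM in vector libraries), and endothelial markers 0 of 4. The part of these shifts in the synthetase values was not tested.

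In FOXK2 cells 4 cytosolic synthetase genes were higher and none was lower, while the mitochondrial set split into 5 lower and 2 higher genes. The called cytosolic genes were GARS, FARSB, IARS and NARS, with log2 fold changes of 0.81 to 0.92. Over both sets 11 of 39 genes (28.2%) passed an adjusted p of 0.05, against 36.3% of all 10305 genes tested. The 6 higher genes (15.4%) stand beside 17.6% of all genes, and the 5 lower genes (12.8%) beside 18.7%. In 18 of the 39 genes (46.2%) the FOXK2 and vector libraries did not overlap, against 52.0% of all genes, and these were 11 higher (25.6% of all genes) and 7 lower genes (26.4% of all genes). Over both sets the share called was thus not above that of all genes in either direction. Within the sets, 18.2% of cytosolic genes were called higher and 0 lower, and 11.8% of mitochondrial genes were called higher and 29.4% lower, beside the same 17.6% and 18.7% of all genes. The mitochondrial share called, 41.2%, stands beside 36.3%, and no test of either set was made. The median log2 fold change was 0.19 over the 22 cytosolic genes and -0.26 over the 17 mitochondrial genes, against 0.01 over all genes. These medians were 0.25 and -0.23 after quantile normalization and 0.18 and -0.27 after median ratio scaling. They shrank to 0.06 and -0.14 once trends with GC content and length were removed from each library. With 1 library left out, the cytosolic median ranged from 0.13 to 0.25 and the mitochondrial median from -0.32 to -0.11. Class I and class II enzymes, 18 genes each with EPRS and the scaffold genes left out, gave 2 higher and 1 lower genes in class I and 4 higher and 4 lower in class II.

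**Figure D1:**
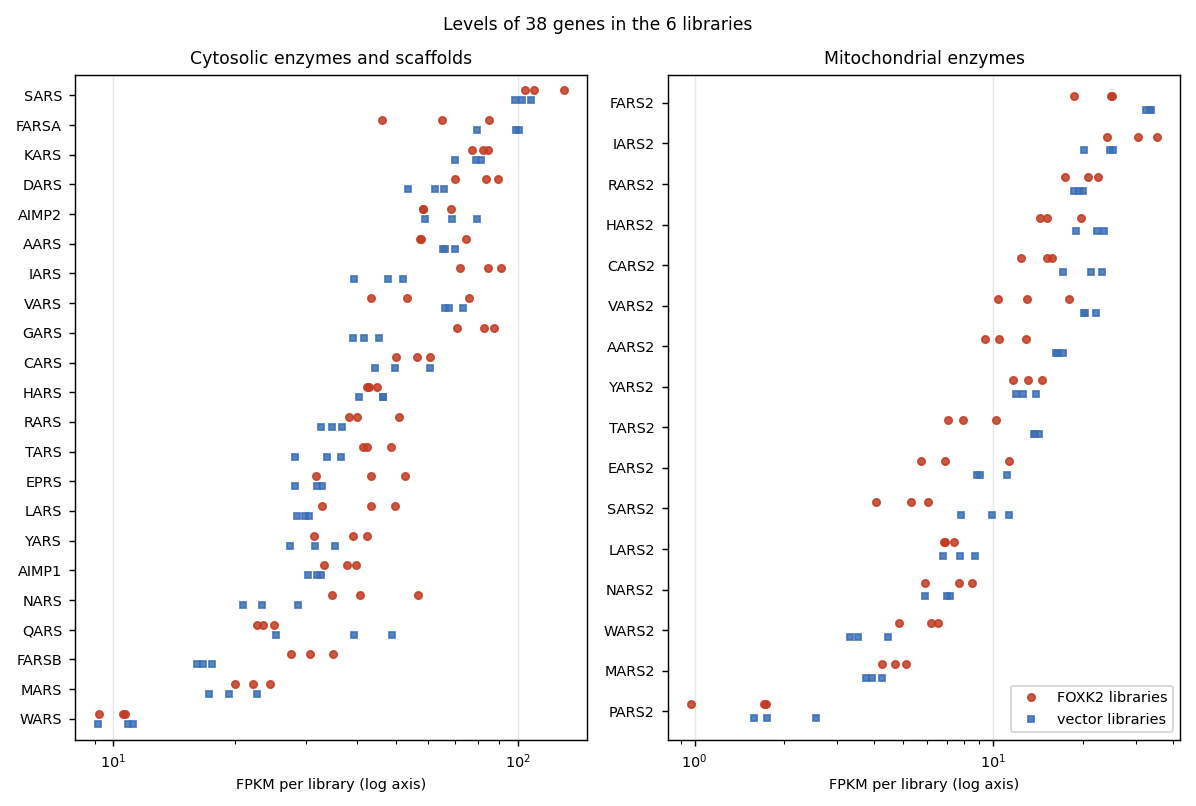
Level of 38 genes in each library, in FPKM on a log axis, with FOXK2 libraries drawn above vector libraries. GARS, FARSB, IARS and NARS show FOXK2 points clear to the right of the vector points, and mitochondrial genes such as SARS2 and TARS2 show them clear to the left.

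GARS, which makes both the cytosolic and the mitochondrial glycyl enzyme, had 87.6, 70.8 and 82.7 FPKM in FOXK2 libraries, against 41.6, 45.4 and 39.1 FPKM in vector libraries. All 3 FOXK2 libraries lay far above the vector libraries, with means of 80.4 ± 8.62 FPKM in FOXK2 cells and 42.1 ± 3.17 FPKM in vector cells (SD, n = 3 each). The log2 fold change was 0.92 (SE 0.13, adjusted p = 0.00262, limma), and the call held under all 17 alternatives tried at the same threshold, with adjusted p-values from 0.0017 to 0.0154. FARSB, the beta subunit of the phenylalanyl enzyme, had 34.9, 27.4 and 30.7 FPKM in FOXK2 libraries, against 16.7, 17.6 and 16.1 FPKM in vector libraries. The groups were again well apart, with a log2 fold change of 0.84 (SE 0.13, adjusted p = 0.00404).

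IARS, the isoleucyl enzyme, had 90.8, 71.9 and 84.3 FPKM in FOXK2 libraries, against 52.1, 47.7 and 39.5 FPKM in vector libraries. The groups did not overlap and the log2 fold change was 0.82 (SE 0.15, adjusted p = 0.00668). When a gene was read from its most abundant transcript alone, IARS was not called (1.41, adjusted p = 0.120). NARS, the asparaginyl enzyme, had 56.6, 34.8 and 40.8 FPKM in FOXK2 libraries, against 28.6, 20.9 and 23.4 FPKM in vector libraries. Its FOXK2 libraries were the more widely spread group, with replicate 1 highest, and the log2 fold change was 0.81 (SE 0.20, adjusted p = 0.0194). The NARS call was lost without FOXK2 replicate 3 (adjusted p = 0.0514), without vector replicate 2 (0.0626) and without vector replicate 3 (0.0616). The number of cytosolic genes called was 10 without FOXK2 replicate 2 and 3 to 5 without any 1 of the other libraries. Without vector replicate 1 the called genes were 4 higher and 1 lower. Those 10 were 8 higher genes, with DARS (0.51), EPRS (0.62), LARS (0.63) and TARS (0.46) added, and 2 lower genes, FARSA (-0.75) and VARS (-0.51). The count over all 10305 genes grew likewise, to 4767 without FOXK2 replicate 2, against 3741 with all libraries and 1944 to 2583 without any 1 of the other libraries.

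The multi-synthetase complex, 10 of the 39 genes (DARS, EPRS, IARS, KARS, LARS, MARS, QARS, RARS, AIMP1 and AIMP2), had 1 called gene, IARS (10%, against 36.3% of all genes). The median log2 fold change was 0.26, and it was 0.01 once trends with GC content and length were removed from each library. Over all genes the median was 0.01 both before and after this removal. DARS, the aspartyl enzyme, had 89.5, 69.9 and 83.7 FPKM in FOXK2 libraries, against 65.9, 62.5 and 53.5 FPKM in vector libraries, and its log2 difference of 0.41 had an adjusted p of 0.0531. LARS, the leucyl enzyme, had 49.9, 32.9 and 43.4 FPKM in FOXK2 libraries, against 28.5, 30.6 and 29.8 FPKM in vector libraries (0.47, adjusted p = 0.0563). Neither gene's groups overlapped, and neither passed the threshold. With the same trends removed, the differences were 0.05 in DARS (adjusted p = 0.646) and 0.03 in LARS (adjusted p = 0.847). EPRS overlapped between the groups, with 52.8, 31.7 and 43.4 FPKM in FOXK2 libraries, against 32.0, 32.8 and 28.1 FPKM in vector libraries (0.42, adjusted p = 0.116). QARS, the glutaminyl enzyme, pointed the other way, with 22.7, 23.5 and 25.0 FPKM in FOXK2 libraries, against 25.3, 48.8 and 39.3 FPKM in vector libraries. Vector replicate 1 lay just above the FOXK2 libraries and the other vector libraries well above them, and the difference of -0.60 was not called (adjusted p = 0.0699). RARS (0.30) and AIMP1 (0.21) were higher without overlap and uncalled, while KARS (0.09), MARS (0.17) and AIMP2 (-0.15) overlapped. EEF1E1, the scaffold gene outside the naming rule, averaged 53.7 ± 0.543 FPKM in FOXK2 cells and 45.7 ± 5.99 FPKM in vector cells (SD, n = 3 each; adjusted p = 0.175).

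The subunits of the phenylalanyl enzyme, which pair in the protein, had log2 differences of opposite sign, although that of FARSA was 0.01 once trends with GC content and length were removed from each library. FARSA, the alpha subunit, had 46.1, 84.8 and 65.0 FPKM in FOXK2 libraries, against 79.5, 99.3 and 101 FPKM in vector libraries, a log2 difference of -0.54 that was not called (adjusted p = 0.0886). FOXK2 replicate 2 lay above vector replicate 1, so the groups overlapped. The ratio of FARSA to FARSB was 1.32, 3.09 and 2.12 in FOXK2 libraries, against 4.75, 5.65 and 6.27 in vector libraries, with no overlap. The transcripts differ in base composition, 61.8% GC in FARSA and 41.6% in FARSB, and the part of this in the ratio was not tested beyond that correction.

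Among the cytosolic enzymes outside the complex, SARS, the seryl enzyme, had the highest mean level in FPKM of the 39 genes in both groups, 115 ± 13.7 FPKM in FOXK2 cells and 103 ± 4.90 FPKM in vector cells (SD, n = 3 each), and WARS, the tryptophanyl enzyme, had the lowest of the cytosolic genes, with means of 10.2 FPKM in FOXK2 cells and 10.4 FPKM in vector cells. TARS, the threonyl enzyme, had 42.5, 41.4 and 48.5 FPKM in FOXK2 libraries, against 28.2, 33.8 and 36.7 FPKM in vector libraries. The groups did not overlap, and the log2 difference of 0.42 missed the threshold narrowly (adjusted p = 0.0505). Once trends with GC content and length were removed from each library, the TARS difference was 0.03 (adjusted p = 0.910). SARS (0.15), YARS (0.25), CARS (0.12), AARS (-0.10), VARS (-0.30), WARS (-0.03) and HARS (-0.03) overlapped between the groups and were not called, and the sign of HARS turned to 0.025 under quantile normalization.

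**Figure D2:**
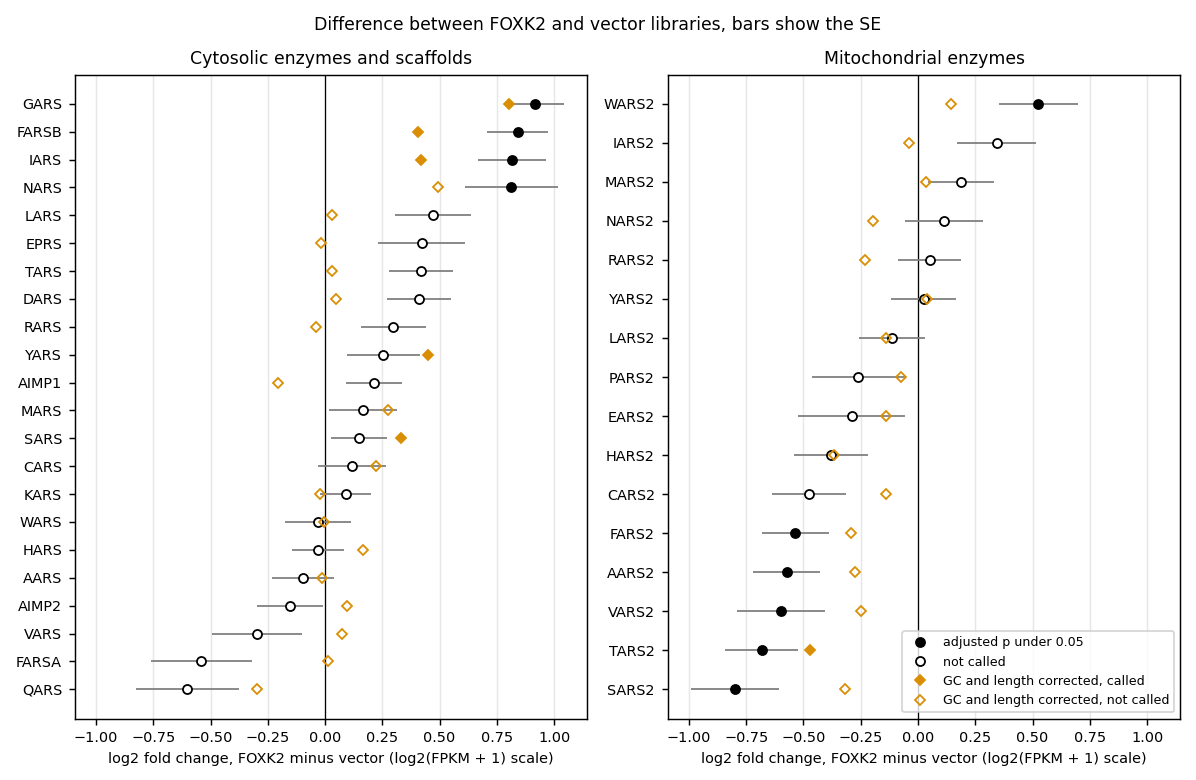
Log2 fold change of 38 genes, FOXK2 over vector, with its standard error, on the log2(FPKM + 1) scale, cytosolic and mitochondrial genes apart and called genes marked, with diamonds for values after the GC and length correction. Called cytosolic genes lie between 0.81 and 0.92, and called mitochondrial genes lie on both sides of 0, from -0.80 to 0.52.

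In the mitochondrial set the 5 lower genes were SARS2, TARS2, VARS2, AARS2 and FARS2, the seryl, threonyl, valyl, alanyl and phenylalanyl enzymes. SARS2 had 4.05, 6.05 and 5.30 FPKM in FOXK2 libraries, against 7.82, 9.89 and 11.3 FPKM in vector libraries (log2 fold change -0.80, SE 0.19, adjusted p = 0.0174). TARS2 had 7.08, 10.3 and 7.94 FPKM in FOXK2 libraries, against 14.3, 13.7 and 13.9 FPKM in vector libraries (-0.68, adjusted p = 0.0158). In both genes every FOXK2 library was below every vector library, and FOXK2 replicate 2 was the FOXK2 library closest to the vector level. VARS2 had 10.4, 17.9 and 13.0 FPKM in FOXK2 libraries, against 20.3, 20.2 and 22.2 FPKM in vector libraries (-0.60, adjusted p = 0.0449). AARS2 had 9.41, 12.9 and 10.5 FPKM in FOXK2 libraries, against 17.1, 16.3 and 16.5 FPKM in vector libraries (-0.57, adjusted p = 0.0218). FARS2, a single-chain enzyme unlike its cytosolic counterpart, had 18.6, 25.1 and 24.8 FPKM in FOXK2 libraries, against 32.6, 33.9 and 33.5 FPKM in vector libraries (-0.54, adjusted p = 0.0263). Vector libraries agreed closely in these last 3 genes, whereas FOXK2 libraries spread more, and no groups overlapped. Once trends with GC content and length were removed from each library, TARS2 kept its call (-0.47, adjusted p = 0.0177). SARS2 (-0.32), VARS2 (-0.25), AARS2 (-0.27) and FARS2 (-0.29) were then not called.

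Among the 2 higher mitochondrial genes was WARS2, the tryptophanyl enzyme. It had 6.55, 4.83 and 6.21 FPKM in FOXK2 libraries, against 4.46, 3.52 and 3.32 FPKM in vector libraries (log2 fold change 0.52, adjusted p = 0.0474). The groups did not overlap, and FOXK2 replicate 2 lay closest to the vector libraries. After removal of trends with GC content and length, the WARS2 difference was 0.14 and was not called (adjusted p = 0.342). Of the other 10 mitochondrial genes, CARS2 was lower without overlap and uncalled (-0.48, adjusted p = 0.0527), HARS2 (-0.38), EARS2 (-0.29), PARS2 (-0.26) and LARS2 (-0.11) were uncalled below 0, and IARS2 (0.34), MARS2 (0.19), NARS2 (0.11), RARS2 (0.05) and YARS2 (0.02) were uncalled above 0, YARS2 with a sign that turned to -0.019 under quantile normalization. The number of mitochondrial genes called, like that of all genes, depended on the libraries: it was 2, 10 and 0 without FOXK2 replicates 1, 2 and 3 (2349, 4767 and 1944 of all 10305 genes), and 3, 1 and 1 without vector replicates 1, 2 and 3 (2583, 2289 and 2018 of all genes).

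Some exons are shared with other genes, and the use of strand in the authors' counting is not given in the sources used here. Of the exonic bases of SARS2, 10.8% overlap MRPS12 on the opposite strand, which averaged 42.5 FPKM in FOXK2 cells and 62.3 FPKM in vector cells. Overlap with AC011455.2 on the same strand, which had no listed value, covers 46.2%, so the SARS2 values are uncertain. VARS2 shares about 22% of its exonic bases with GTF2H4 on the same strand (6.48 FPKM in FOXK2 cells and 6.69 FPKM in vector cells), and AIMP2 shares 28.9% with EIF2AK1 on the opposite strand (35.9 FPKM in FOXK2 cells and 32.5 FPKM in vector cells). HARS2 and HARS lie head to head with starts 85 bases apart, and 11.7% of HARS2 exonic bases overlap HARS. In all, 13 of the 39 genes overlap a listed gene, and 12 have pseudogenes named after them, of which 0 were listed.

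The 22 cytosolic genes, with the scaffold genes AIMP1 and AIMP2 among them, summed to 1174, 1173 and 1148 FPKM in FOXK2 libraries. Their sums in vector libraries were 975, 1041 and 1055 FPKM. The 17 mitochondrial genes summed to 190.5, 203 and 204 FPKM in FOXK2 libraries, against 231, 235 and 232 FPKM in vector libraries. The cytosolic sum was above and the mitochondrial sum below the vector range in every FOXK2 library. GARS and KARS, which make both forms, were counted wholly in the cytosolic sum. GARS alone averaged 80.4 FPKM in FOXK2 cells and 42.1 FPKM in vector cells. The sums were not corrected for GC content and not scaled to the summed FPKM of all genes. That total was 334344, 362494 and 346661 FPKM in FOXK2 libraries, against 369738, 375240 and 394865 FPKM in vector libraries. The mitochondrial sum and this total were thus both lower in FOXK2 libraries, and the part of the total in the sums was not tested. The ratio of the sums was 5.85 ± 0.281 in FOXK2 cells and 4.40 ± 0.171 in vector cells (SD, n = 3 each). As bulk values, these cannot tell a change in RNA per cell from a change in the mix of cells.

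Of 18 ratios of a cytosolic gene to the mitochondrial gene for the same amino acid, 9 were higher in FOXK2 cells without overlap, 0 were lower without overlap and 9 overlapped. Among single genes, the groups did not overlap in 52.0% of all tested genes, and no such share was computed for ratios of other genes. EPRS and FARS2 each enter more than once, and the ratios were not corrected for GC content. The 9 were the pairs for alanine, cysteine, isoleucine, leucine, asparagine, serine, threonine and valine and the ratio of FARSB to FARS2. SARS to SARS2 was 25.8, 21.5 and 20.7 in FOXK2 libraries, against 12.6, 10.4 and 9.57 in vector libraries. TARS to TARS2 was 6.002, 4.04 and 6.11 in FOXK2 libraries, against 1.97, 2.46 and 2.65 in vector libraries. VARS to VARS2 was 4.18, 4.22 and 4.08 in FOXK2 libraries, against 3.24, 3.36 and 3.32 in vector libraries, a separation with little spread in either group. For valine both genes had negative log2 differences, -0.30 in VARS and -0.60 in VARS2, and for isoleucine both had positive ones, 0.82 in IARS and 0.34 in IARS2. WARS to WARS2 had the lower mean in FOXK2 cells, 1.77 ± 0.386, against 2.84 ± 0.692 in vector cells, with overlap. GC content was not matched within pairs: in SARS and SARS2 it differed by -8.71 percentage points (cytosolic minus mitochondrial), in TARS and TARS2 by -11.1, in IARS and IARS2 by -0.0198 and in VARS and VARS2 by 2.51.

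**Figure D3:**
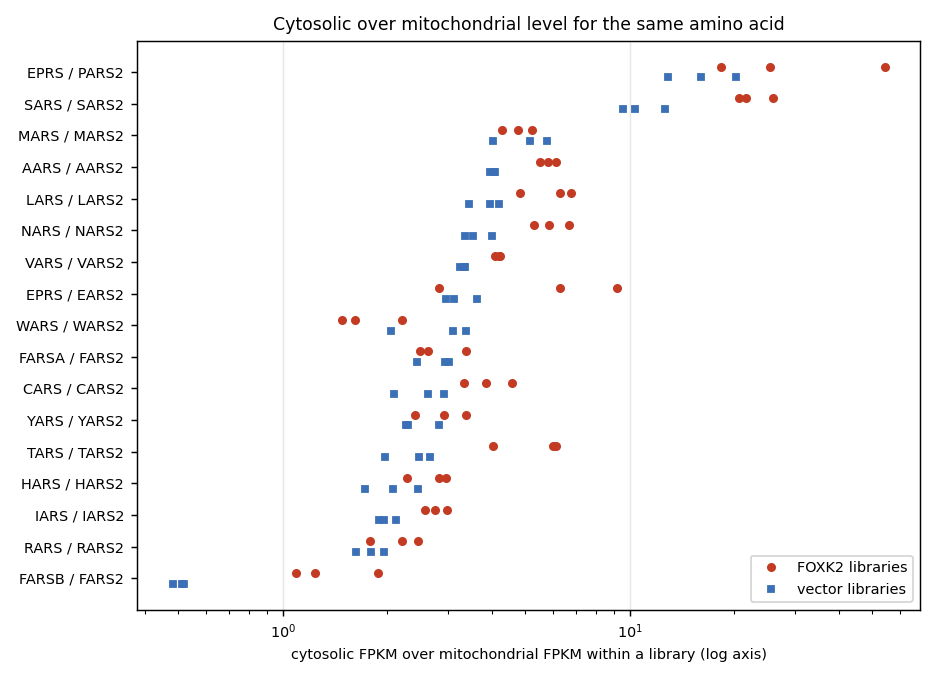
Ratio of a cytosolic gene to the mitochondrial gene for the same amino acid in each library, for 17 pairs, on a log axis, with FOXK2 libraries above vector libraries. The FOXK2 points lie to the right of all vector points in 9 of the 17 pairs drawn, with SARS to SARS2 reaching 25.8.

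Fold changes of the 39 genes followed the GC content of their transcripts, with a Spearman rho of -0.77 across genes, against -0.59 across all 10305 genes. Genes share libraries and are not independent replicates. Within the sets rho was -0.70 over the 22 cytosolic and -0.89 over the 17 mitochondrial genes. All genes were ordered by GC content and cut into 10 bins of equal size. The bin with a median of 43.0% GC, which holds 9 of the 39 genes (among them EPRS, IARS, IARS2, LARS, NARS2, RARS2, TARS and WARS2), had a median log2 fold change of 0.35. The bin with a median of 54.3% GC, with 10 of the 39 (AARS, CARS, CARS2, EARS2, FARS2, HARS, PARS2, QARS, TARS2 and YARS), had a median of -0.21. GARS, at 48.6% GC, lay in a bin with a median log2 fold change of 0.13 and was itself at 0.92.

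After removal of a smooth trend on GC content and length from each library, 6 of the 39 genes were called, 5 higher and 1 lower, against 30.2% of all genes (15.9% higher and 14.3% lower). The 5 were all cytosolic: GARS (0.80, adjusted p = 0.00172), IARS (0.42, adjusted p = 0.00986), FARSB (0.41, adjusted p = 0.0172), SARS (0.33, adjusted p = 0.0209) and YARS (0.45, adjusted p = 0.0317). NARS kept 0.49 and was not called (adjusted p = 0.0506), and FARSA stood at 0.01. TARS2 was the 1 mitochondrial gene called (-0.47, adjusted p = 0.0177), while SARS2, AARS2, FARS2, VARS2 and WARS2 were not. The median was 0.06 over cytosolic genes and -0.14 over mitochondrial genes, against 0.01 over all genes, and rho with GC content was -0.21 over the 39 genes, 0.16 over the cytosolic and -0.55 over the mitochondrial genes, against 0.01 over all genes.

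**Figure D4:**
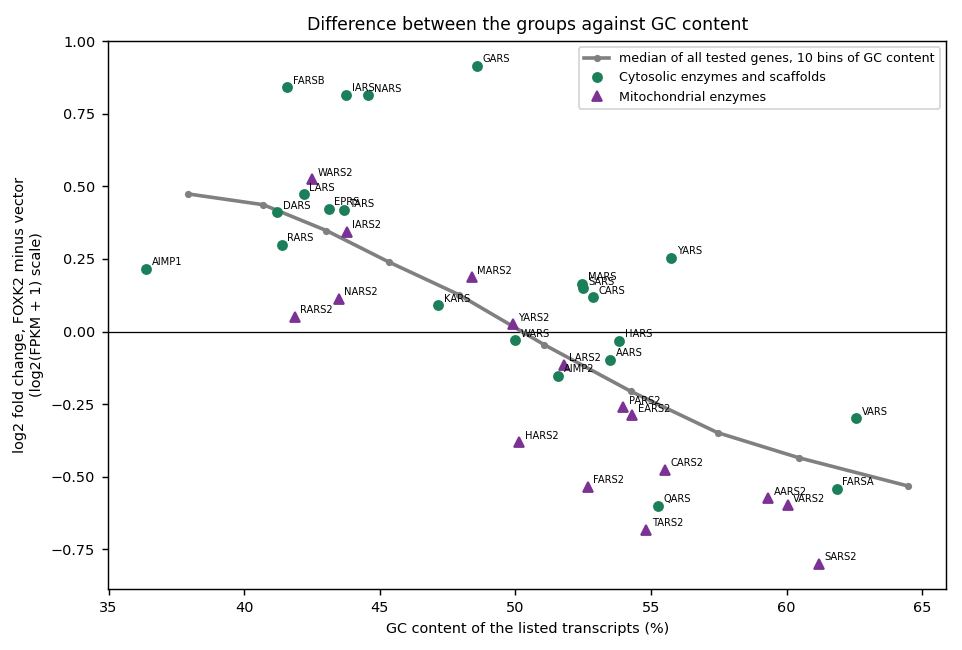
Log2 fold change of 38 genes, FOXK2 over vector, against GC content of their transcripts in percent, with the median of all genes in each of 10 bins of GC content. Fold changes decline with GC content in both sets, and GARS, at 48.6% GC and 0.92, stands above the median of its bin, 0.13.

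Of 113 listed transcripts of the 39 genes, 89 were tested singly and 2 were called, both higher, against 7.39% of all transcripts. They were the single listed transcripts of GARS, ENST00000389266 (adjusted p = 0.019), and of FARSB, ENST00000281828 (adjusted p = 0.027). The number of called transcripts was 4 without FOXK2 replicate 2, 1 without vector replicate 1 and 0 without any 1 of the other libraries. A gene had 1 listed transcript in 14 cases and at most 9, in QARS and WARS. The most abundant IARS transcript, ENST00000447699, had 44.5, 37.9 and 42.4 FPKM in FOXK2 libraries, against 26.5, 5.13 and 23.4 FPKM in vector libraries. Vector replicate 2 was far below the others for this transcript and not for the IARS sum, 47.7 FPKM.

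Of the regulators known to act on these genes, ATF4 had 160.0, 188 and 172 FPKM in FOXK2 libraries, against 213, 189.9 and 216 FPKM in vector libraries. All FOXK2 libraries were below the vector libraries, by a small margin in replicate 2, and the log2 difference of -0.25 was not called (adjusted p = 0.116). After the GC and length correction the ATF4 difference turned to 0.07 (adjusted p = 0.501). EIF2AK4, the kinase that senses uncharged transfer RNA, had 35.7, 24.1 and 29.8 FPKM in FOXK2 libraries, against 21.1, 21.8 and 19.6 FPKM in vector libraries (0.49, adjusted p = 0.0486). MYC averaged 9.85 ± 8.31 FPKM in FOXK2 cells, with replicate 1 far above the rest, and 4.65 ± 1.56 FPKM in vector cells (adjusted p = 0.261). Among 26 tested ATF4 targets other than synthetases, 6 were higher (23.1%) and 4 lower (15.4%), beside 17.6% and 18.7% of all genes. The median log2 fold change of these targets was -0.01. ASNS, asparagine synthetase, had 58.6, 84.0 and 66.0 FPKM in FOXK2 libraries, against 19.7, 19.7 and 24.9 FPKM in vector libraries (1.65, adjusted p = 0.000888), and PSAT1, of serine synthesis, was also higher (1.03, adjusted p = 0.00144). PPP1R15A, which directs dephosphorylation of eIF2 alpha, was lower (-1.10, adjusted p = 0.001), as was DDIT4, an inhibitor of mTORC1 signalling (-1.45, adjusted p = 0.00128). After the GC and length correction the counts of these targets were again 6 higher and 4 lower, though not all of the same genes. ASNS, PSAT1, PPP1R15A and DDIT4 kept the call, while some other targets lost or gained it. EIF2AK4 was not called after the correction (adjusted p = 0.149).

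Genes of other steps in the life of transfer RNA were counted in the same way, beside 17.6% higher and 18.7% lower of all genes. Of 20 tested genes of other aminoacylation and quality control steps, 0 were higher and 6 lower (median -0.15), among them GTPBP2, a ribosome rescue factor (-1.07), PTRHD1 (-0.88) and DTD1, which removes D-amino acids from transfer RNA (-0.50). Of 7 genes that deliver charged transfer RNA to ribosomes, 0 were higher and 3 lower (median -0.50): EEF1G (-0.58) and EEF1B2 (-0.50), subunits of the exchange factor for EEF1A1, and TUFM (-0.50), the mitochondrial elongation factor. EEF1A1 had 1189, 1127 and 1215 FPKM in FOXK2 libraries, against 2377, 1465 and 1450 FPKM in vector libraries, with vector replicate 1 far above the others, and was not called (adjusted p = 0.0576). After the GC and length correction the quality control list had 0 higher and 5 lower genes, DTD1 no longer among them (adjusted p = 0.0525). The delivery list then had 1 higher and 2 lower genes: EEF1G (adjusted p = 0.0831) and TUFM (0.326) lost the call, EEF1B2 kept it (0.0216) and EEF1A1 gained it (-0.60, adjusted p = 0.0496). Of 26 genes of transfer RNA maturation and export, 6 were higher and 3 lower (median 0.09): RPP30, of ribonuclease P, was higher (0.98), as was the export factor XPOT (0.86), and POP5, also of ribonuclease P, was lower (-0.85), as was HSD17B10, of the mitochondrial enzyme (-0.63). Of 49 tested modification genes, 5 were higher and 6 lower (median -0.03), with LAGE3 (-0.84), MOCS3 (-0.68) and QTRT1 (-0.99) lower and NSUN6, an RNA methyltransferase, higher (0.72). After the same correction the maturation list had 7 higher and 2 lower genes, and HSD17B10 was no longer called (-0.06, adjusted p = 0.662). The modification list then had 4 higher and 4 lower genes: LAGE3 (-0.11, adjusted p = 0.397), QTRT1 (-0.36, adjusted p = 0.0914) and NSUN6 (0.37, adjusted p = 0.0552) lost the call and MOCS3 kept it (-1.03, adjusted p = 0.0114).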

How the data were processed

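RNA from 6 libraries of CAL-62 cells was sequenced, 3 with FOXK2 overexpression and 3 with the vector, from a dUTP-based stranded kit per the labels' protocols. Per the submitters' processing notes, cutadapt, HISAT2 2.1.0 and StringTie were used on hg19. The deposited values, 31009 transcripts by 6 libraries, carry no stated unit and are taken as FPKM, as StringTie gives it, made by the authors. Depth is unknown: of 200 low values only 5% were whole multiples of a common step (tolerance 0.02), so no counting intervals are given. No transcript was listed whose larger group mean was under 0.500 FPKM.

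Transcripts were matched to GENCODE 29 (30893 matched, and the other 116 held 0.211% of the signal) and summed to 11359 genes. Of these, 10305 reached an average of 1 FPKM across all libraries and were tested as log2(FPKM + 1) with limma 3.58.1 in R 4.3.3 (intensity trend, two-sided, group as the only term), with Benjamini-Hochberg adjustment over all tested genes and a threshold of 0.05. Fold changes are on the log2(FPKM + 1) scale and understate the change of low genes. The fit was tested on simulated data. The GC and length correction removed natural splines (4 degrees of freedom) per library. Values in full are given for called genes and the 4 of smallest p in each set, and up to 4 genes of smallest p per list, and genes named beyond these were chosen after their values were seen. The 39 genes, the lists and the motifs were chosen with earlier results of these data known. Promoters are from RefSeq (GRCh38.p14). Alternatives were other pseudocounts, filters, scalings, fits and transcript choices, and leaving out each library. A few genes are counted and are not reported here by name or drawn.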

Additional observations from a re-analysis of the deposited data

How the results depend on the processing

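Over the 39 genes and 17 alternatives at the same threshold, 552 of the results kept their direction and side of the threshold, 57 lost the call, 20 gained it and 31 changed sign, all 31 in genes not called, and genes under a filter of 5 FPKM gave no value there. No pairing of the samples by replicate number was seen: deviations of same-numbered libraries correlated at 0.126, -0.168 and -0.0564. Those of unlike-numbered libraries ranged from -0.284 to 0.302, so such correlations cannot exclude a shared preparation. With the replicate number as a block, 4 mitochondrial genes and 0 transcripts were called, in place of 7 and 2, and the other counts stayed within 1.5 times. The cytosolic genes called with this block were 4 higher and 1 lower, the lower being FARSA (-0.54, adjusted p = 0.0473, limma).

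With the most abundant transcript in place of gene sums, 2143 of all genes (3741 otherwise), 2 mitochondrial and 6 of the 39 genes were called. With the GC and length correction the counts were 1 mitochondrial gene and 6 of 39, and with the block as well 2124 of all genes, 0 mitochondrial and 3 of 39. A further threshold of 1 on log2 fold change left 1040 of all genes, 0 cytosolic, 0 mitochondrial and 0 of 39. Leaving out 1 library gave 1944 (without FOXK2 replicate 3) to 4767 (without FOXK2 replicate 2) of all genes, 3 to 10 cytosolic, 0 to 10 mitochondrial, 3 to 20 of the 39 and 0 to 4 transcripts. The cause was not tested.

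Signs turned with the GC and length correction, with and without the block, in EPRS (-0.017), FARSA (0.012), HARS (0.17), KARS (-0.022), RARS (-0.041), VARS (0.075), AIMP1 (-0.20), AIMP2 (0.094), IARS2 (-0.038), NARS2 (-0.20) and RARS2 (-0.23), and with quantile normalization in HARS (0.025) and YARS2 (-0.019). Without a single library, log2 differences ranged from -0.095 (without vector replicate 1) to 0.00046 (without vector replicate 3) in HARS, which was 0.00038 without vector replicate 2. They ranged from -0.11 (without vector replicate 1) to 0.032 (without FOXK2 replicate 3) in WARS, from -0.027 (without FOXK2 replicate 3) to 0.15 (without FOXK2 replicate 2) in RARS2, and from -0.049 (without FOXK2 replicate 2) to 0.10 (without FOXK2 replicate 3) in YARS2. At the same threshold, FARSB lost its call only with the block and the correction together (adjusted p = 0.0599).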
